A study of Mus musculus with 16 samples.

Results

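Wnt proteins act on a cell only after they have been lipid-modified, carried to the cell surface and bound by a receptor complex, and the genes described here encode the parts of that path. Porcn adds the lipid to a Wnt protein in the endoplasmic reticulum, and Wls carries the modified Wnt from the Golgi to the plasma membrane. At the receiving cell, a Frizzled receptor and Lrp5 or Lrp6 bind the Wnt together, which leads to stabilisation of β-catenin, while Lgr4 binds R-spondins and thereby keeps Frizzled receptors from being removed by the ubiquitin ligases Rnf43 and Znrf3. In the small intestine this signal maintains stem cells at the crypt base and the Paneth cells between them. The 10 genes were chosen by symbol, with earlier results of these data known: Fzd1, Fzd5, Fzd6, Fzd7, Fzd8, Lrp5, Lrp6, Lgr4, Porcn and Wls. All 10 were present in both count tables, which list 20790 genes at day 2 and 20658 genes at day 4, and all 10 passed the filter on low counts in every library.

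RNA was sequenced from epithelial organoids of the jejunum of C57BL/6 mice with the genotype Villin-CreERT2; Hnf4aflox/flox. All groups carry the Cre recombinase, which the Villin promoter drives in the epithelium and 4-hydroxytamoxifen activates, and both floxed alleles of Hnf4a, a nuclear receptor of the intestinal epithelium. The 4 groups of 4 libraries are 4OHT-treated (0.5 µM for 24 h, then split) and DMSO-treated organoids at day 2, and 4OHT-treated and DMSO-treated organoids at day 4. The protocol in the labels describes a day 4 harvest, and the day 2 harvest is named only by the time point label. Whether the libraries of a group stem from separate mice or cultures is not stated in the labels, and the p-values therefore rest on a library-to-library spread that could be technical only. No 4OHT-treated group without floxed alleles was analysed here, so 4OHT with Cre activation and loss of Hnf4a cannot be told apart.

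Library totals were 63.8 M to 93.3 M counts. Hnf4a was at 511 ± 21.2 CPM in 4OHT organoids and 1020 ± 31.7 CPM in DMSO organoids at day 2, and at 469 ± 15.3 CPM in 4OHT organoids and 967 ± 11.9 CPM in DMSO organoids at day 4 (SD, n = 4 each). It fell by 49.7% at day 2 and fell by 51.4% at day 4, so mRNA counted on the gene remained at both days. Levels are given as CPM, read counts relative to the library total, with totals adjusted by TMM factors over all 16 libraries. The 8 epithelial markers summed to 12514 to 13295 CPM in 4OHT organoids and 10492 to 11724 CPM in DMSO organoids at day 2, and to 8009 to 9196 CPM in 4OHT organoids and 6727 to 7343 CPM in DMSO organoids at day 4. Their sums were thus higher in 4OHT organoids with no overlap at both days, with 2 of the 8 genes called higher and 1 lower at day 2 and 3 called higher at day 4 (edgeR, adjusted p below 0.05). The median log2 fold change of the 8 genes was 0.01 at day 2 and 0.10 at day 4. A sum weighs abundant genes most, and Krt8 alone was at 2580 to 7436 CPM over the 16 libraries. These sums compare with 1.25 to 2.48 CPM in any library for 4 of 9 stromal markers, with Col1a2, Col3a1, Dcn, Lum and Acta2 in neither table. Along the first 2 principal axes, which held 68.3% and 14.9% of the variance, 4OHT day 4 replicate 4 stood apart from its group, at 1.1 on the first and 19.6 on the second, where the other 3 libraries were at 7.5 or more and at 12.4 or less. Several values of the 10 genes are also given without it below.

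The stretches upstream of the transcription start are shown for 3 genes that were higher in 4OHT organoids at day 2 (Wls, Fzd7 and Lgr4) and for Fzd5, the most abundant Frizzled, which was not called. They are the 250 bases before the start site in RefSeq, build GRCm38.p6, written 5′ to 3′ on the strand of the gene. Capitals mark CAAAG or its reverse complement CTTTG, the letters shared by the HNF4 site CAAAGTCCA and the TCF/LEF site CTTTGAT.
Wls, chr3:159839400-159839649, plus strand: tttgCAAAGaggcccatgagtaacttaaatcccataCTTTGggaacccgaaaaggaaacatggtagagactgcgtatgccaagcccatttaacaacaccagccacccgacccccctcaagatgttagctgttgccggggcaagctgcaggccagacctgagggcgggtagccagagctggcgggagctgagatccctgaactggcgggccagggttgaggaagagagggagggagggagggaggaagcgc
Fzd7, chr1:59481897-59482146, plus strand: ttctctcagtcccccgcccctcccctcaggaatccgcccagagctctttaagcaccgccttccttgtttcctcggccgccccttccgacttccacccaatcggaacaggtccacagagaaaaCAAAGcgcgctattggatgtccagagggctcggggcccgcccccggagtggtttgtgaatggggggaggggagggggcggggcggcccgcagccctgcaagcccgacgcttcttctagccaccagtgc
Lgr4, chr2:109917397-109917646, plus strand: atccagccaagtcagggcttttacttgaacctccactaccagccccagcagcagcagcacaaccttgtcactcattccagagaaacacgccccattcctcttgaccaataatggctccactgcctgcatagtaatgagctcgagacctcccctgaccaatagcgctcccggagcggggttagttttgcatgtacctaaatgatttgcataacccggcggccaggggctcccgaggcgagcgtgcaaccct
Fzd5, chr1:64737751-64738000, minus strand: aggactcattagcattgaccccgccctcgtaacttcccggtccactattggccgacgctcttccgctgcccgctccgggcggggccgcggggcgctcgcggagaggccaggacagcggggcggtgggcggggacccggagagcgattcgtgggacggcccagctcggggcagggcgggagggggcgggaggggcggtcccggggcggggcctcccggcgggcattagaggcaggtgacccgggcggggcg

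The Wls stretch holds CAAAG on the strand of the gene 246 bases before the start and on the other strand 214 bases before it. The Fzd7 stretch holds it once, 128 bases before the start, and the Lgr4 and Fzd5 stretches hold none. The stretch of Fzd1, not printed, holds CAAAG 241 bases before the start and on the other strand 37 bases before it. Its GC content is 51.2%. CAAAG on either strand occurs in 48.6% of the 32851 promoter stretches of the same length, so its presence is common. The longer HNF4 site CAAAGTCCA (0.384% of promoters), its variant CAAAGTTCA (0.335%) and the TCF/LEF site CTTTGAT (3.21%) were searched on both strands and were found in none of the 4 stretches. The 4 stretches differ in composition, with a GC content of 58.0% for Wls, 65.2% for Fzd7, 55.6% for Lgr4 and 76.4% for Fzd5, against a median of 52.4% over all promoters.

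Per kilobase of exon, which allows a rough comparison of genes, the 10 genes spanned a wide range of levels in all 4 groups. The length used is that of all annotated exons of a gene merged. Where the transcripts present are shorter, the level is understated, so the order of genes is approximate. Lgr4, Fzd5 and Lrp5 were the most abundant, with mean levels between 28.3 and 41.9 CPM per kb. Fzd7 followed at 13.9 to 17.3 CPM per kb, then Lrp6 at 7.19 to 8.04, Wls at 3.7 to 5.91, Fzd6 at 3.02 to 4.27 and Porcn at 2.69 to 3.54. Fzd1 and Fzd8 were scarce, at most 0.127 CPM per kb, with 10 to 53 counts and 12 to 45 counts per library. In 4OHT organoids at day 2, Lgr4 (41.9 CPM per kb) led, followed by Fzd5 (35.9) and Lrp5 (33.5), with no overlap between the ranges of neighbours. In DMSO organoids at day 2, Fzd5 (35.6) and Lgr4 (35.5) overlapped and Lrp5 lay below both (29.4 CPM per kb). At day 4, Lgr4 was first in both treatments, at 38.5 CPM per kb in 4OHT organoids and 38.3 in DMSO organoids, and Fzd5 and Lrp5 overlapped in both. The order from Fzd7 down to Fzd6 was the same in each group with no overlapping neighbours, whereas Fzd6 and Porcn overlapped at day 2 in both treatments and not at day 4.

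**Figure D1:**
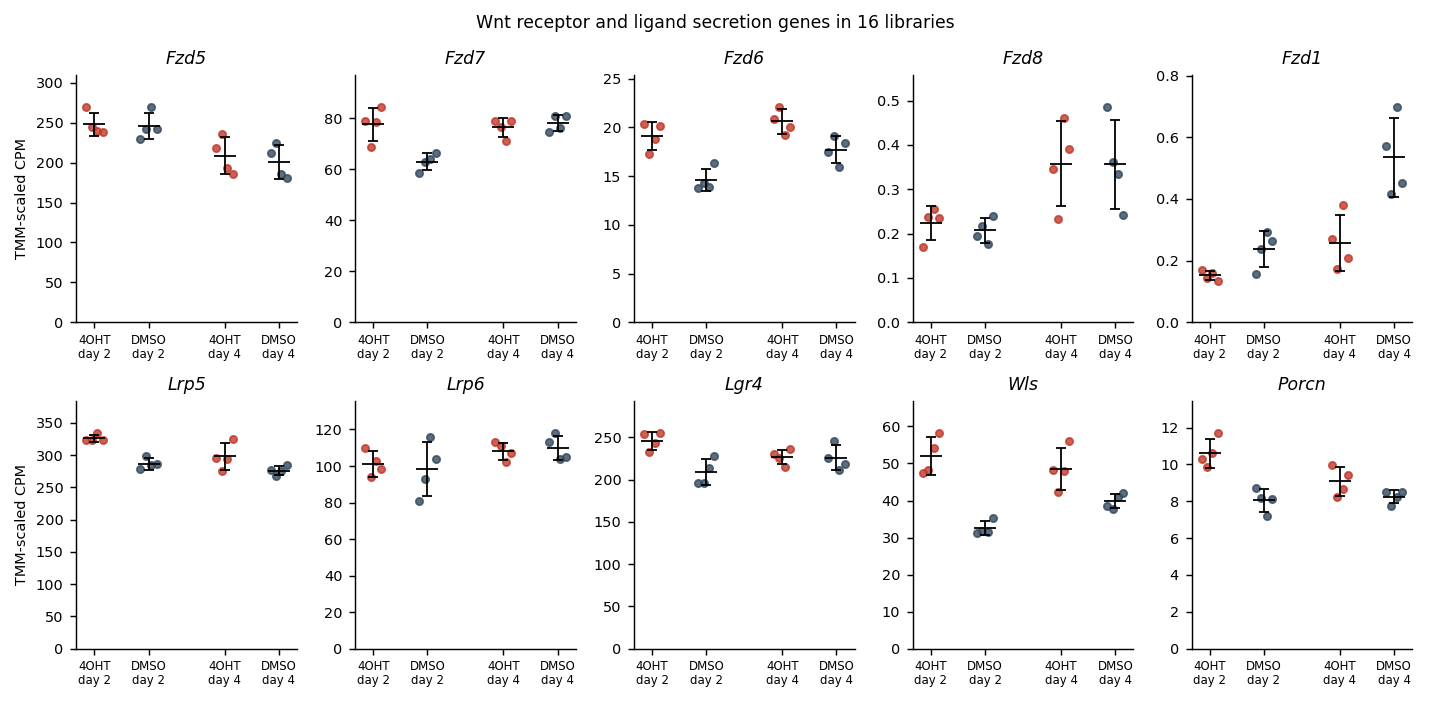
TMM-scaled CPM of the 10 genes; each point is 1 of 4 libraries of a group, with 4OHT organoids in red and DMSO organoids in dark blue, and the bar and whiskers are the mean and SD. Every axis starts at 0 and has its own scale; Wls lies at 47.3 to 58.2 CPM in 4OHT organoids at day 2, above the 31.2 to 35.4 CPM of DMSO organoids, whereas Lrp6 and Fzd5 overlap at both days.

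At day 2 the secretion genes Wls and Porcn and the receptor genes Fzd6, Fzd7, Lgr4 and Lrp5 were higher in 4OHT organoids than in DMSO organoids, by 1.14-fold to 1.61-fold. Of the 10 genes 6 rose at an adjusted p below 0.05 in edgeR's quasi-likelihood test, where 16.9% of the 15897 genes tested rose and 14.3% fell. For each of the 6, all 4OHT libraries lay above all DMSO libraries. The share of all genes with such a separation was not computed, so it adds nothing to the calls. DESeq2 also called 6 higher, where it called 16.1% of genes higher and 14.7% lower. None of the 10 was called lower with either tool, and 1, Fzd1, was lower at an unadjusted p below 0.05. The median log2 fold change of the 10 genes was 0.22, against 0.00 over all genes tested. Since the 10 genes were chosen with earlier results of these data known, the shares and medians over all genes describe the background. They are no independent test of the 10 genes as a set.

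Markers of several epithelial cell types also moved with the treatment at day 2. The 8 goblet cell markers summed to 7012 to 9051 CPM in 4OHT organoids and 4472 to 5231 CPM in DMSO organoids, and the 8 stem cell markers to 982 to 1117 CPM in 4OHT organoids and 1558 to 1807 CPM in DMSO organoids. The 12 Paneth cell markers summed to 1722 to 1905 CPM in 4OHT organoids and 2081 to 2742 CPM in DMSO organoids, and the 8 enterocyte markers to 3305 to 4827 CPM in 4OHT organoids and 4612 to 6355 CPM in DMSO organoids. The enterocyte sums overlapped, although 6 of those 8 genes were called lower (median log2 fold change -0.50), and 8 of the 12 Paneth genes were called lower (median -0.41). The summed epithelial markers were higher in 4OHT organoids, as given above. The part of these shifts in the changes of the receptor and secretion genes was not tested, and in bulk RNA fewer cells of a type and less RNA per cell cannot be told apart.

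Wls, the Wnt carrier, showed the largest difference of the 6 genes called higher. It stood at 47.3, 48.2, 54.1 and 58.2 CPM in 4OHT organoids, against 31.2, 31.8, 31.6 and 35.4 CPM in DMSO organoids. The lowest 4OHT library was thus above the highest DMSO library; DMSO replicate 4 was the highest of its group and the other 3 DMSO libraries were nearly equal. The log2 fold change was 0.68 ± 0.07 (SE), a 60.6% higher level (95% confidence interval of the log2 value 0.53 to 0.84, adjusted p = 2.14e-05). Porcn, the acyltransferase, was at 10.3, 9.84, 10.6 and 11.7 CPM in 4OHT organoids, against 8.7, 8.19, 7.2 and 8.14 CPM in DMSO organoids. It rose by 32.5%, with a log2 fold change of 0.41 ± 0.07 (0.25 to 0.56, adjusted p = 0.00118).

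Among the Frizzled genes, Fzd6 and Fzd7 rose. Fzd6, a Frizzled known in mice for the patterning of hair follicles, had 20.3, 17.3, 18.8 and 20.1 CPM in 4OHT organoids, against 13.8, 14.3, 13.9 and 16.3 CPM in DMSO organoids. The groups were separate and the log2 fold change was 0.40 ± 0.07 (0.24 to 0.56, adjusted p = 0.00141). An exon of Fzd6 overlaps one of the antisense gene Gm26704, and since the strand setting of the counting is not given in the sources used here, reads of the pair cannot be told apart. Fzd7, a Wnt receptor of mouse intestinal stem cells, had 78.9, 68.8, 78.5 and 84.5 CPM in 4OHT organoids, against 58.4, 62.9, 64 and 66.4 CPM in DMSO organoids. Replicate 2 was the lowest 4OHT library and still exceeded the highest DMSO library, with a log2 fold change of 0.31 ± 0.06 (0.17 to 0.45, adjusted p = 0.00345).

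Lgr4 and Lrp5 rose by smaller amounts from high levels. Lgr4, the R-spondin receptor, was at 254, 233, 243 and 255 CPM in 4OHT organoids, against 196, 196, 214 and 228 CPM in DMSO organoids. The lowest 4OHT library was just above the highest DMSO library, and the log2 fold change was 0.24 ± 0.06 (0.11 to 0.38, adjusted p = 0.00883). Lrp5, a Wnt co-receptor also known for its role in bone mass, had 324, 324, 334 and 323 CPM in 4OHT organoids, against 278, 299, 284 and 286 CPM in DMSO organoids. Its log2 fold change of 0.19 ± 0.04 (0.11 to 0.28, adjusted p = 0.00361) was the smallest of the 6.

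Fzd5, Lrp6 and Fzd8 were not called at day 2. Fzd5, a receptor needed for the maturation of mouse Paneth cells, had 270, 245, 240 and 238 CPM in 4OHT organoids, against 230, 242, 270 and 242 CPM in DMSO organoids. The groups overlapped, and the interval of the log2 difference, -0.12 to 0.15, excludes changes of the size seen for Fzd7 and Fzd6. An exon of Fzd5 overlaps one of the antisense gene Gm38058, with the same limit on strand. Lrp6, the paralogous co-receptor, had 110, 93.8, 103 and 98.5 CPM in 4OHT organoids, against 80.6, 92.9, 116 and 104 CPM in DMSO organoids. The DMSO libraries spanned the 4OHT libraries, and the interval of -0.17 to 0.27 includes a change as large as that of Lrp5. The interval of Fzd8, -0.35 to 0.59, was wide at 12 to 21 counts per library.

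Fzd1 was the gene with a lower estimate. It had 0.169, 0.145, 0.159 and 0.135 CPM in 4OHT organoids, against 0.156, 0.239, 0.293 and 0.263 CPM in DMSO organoids. DMSO replicate 1 lay among the 4OHT libraries, and the log2 fold change of -0.65 ± 0.25 had an interval below 0 (-1.20 to -0.11) and an adjusted p of 0.0663. Without that library it was -0.80 (adjusted p = 0.0243).

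**Figure D2:**
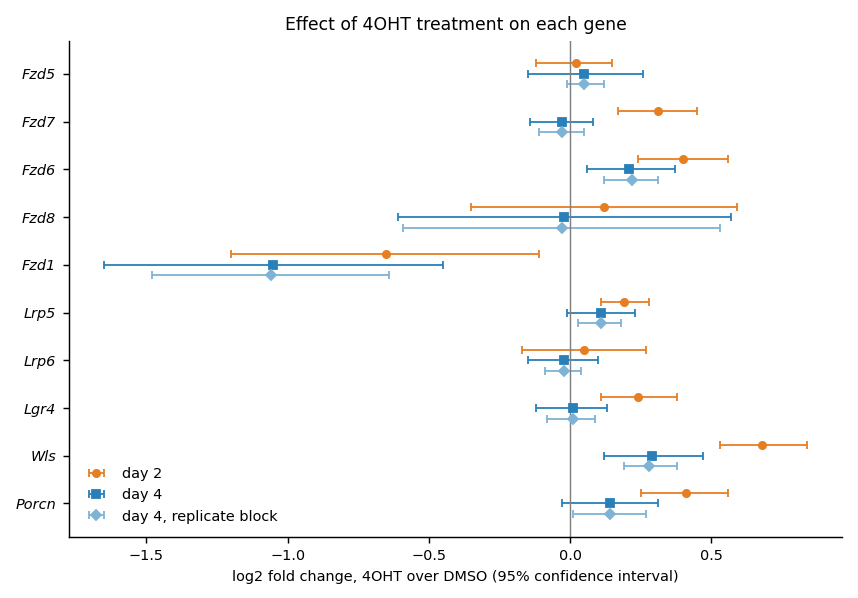
Log2 fold change of each gene, 4OHT over DMSO, with its 95% confidence interval, at day 2 (orange circles), at day 4 (dark blue squares) and at day 4 with the replicate number as a block (light blue diamonds); n = 4 libraries per group. The intervals of Fzd1 lie below 0 at both days. At day 2 the intervals of 6 genes lie above 0, from Lrp5 at 0.19 to Wls at 0.68; at day 4 those of Wls and Fzd6 do, with the block also those of Lrp5 and Porcn, and Fzd7 and Lgr4 lie at -0.03 and 0.01.

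At day 4 fewer of the 10 genes were called between treatments. On simulated counts the test recovered 18% of 1.25-fold changes at day 4 and 52% at day 2. In that simulation far fewer genes changed than were called in the data, and libraries were drawn independently. These percentages therefore do not give the chance of missing a change in the 10 genes. Wls and Fzd6 were higher and Fzd1 was lower in 4OHT organoids. Each of the 3 had no overlap between the groups, again without a share computed over all genes. Of all 16040 genes tested, 13.7% rose and 11.1% fell. The median log2 fold change of the 10 genes was 0.03, against -0.01 over all genes. At this day, libraries with the same replicate number deviated together in both treatments, so the fit with the replicate number as a block is given beside the results it changes. With the block, 22.8% of all genes rose and 22.2% fell, and 3 of the 10 genes rose (Lrp5 in addition) and 1 fell. Goblet markers summed to 6653 to 8678 CPM in 4OHT organoids and 3392 to 4660 CPM in DMSO organoids at day 4, stem cell markers to 2596 to 3104 CPM in 4OHT organoids and 3838 to 4174 CPM in DMSO organoids, and Paneth markers to 2469 to 2678 CPM in 4OHT organoids and 2794 to 3413 CPM in DMSO organoids. The epithelial sums, given above, were higher in 4OHT organoids at this day too. The enterocyte sums overlapped, at 6998 to 9644 CPM in 4OHT organoids and 7319 to 8216 CPM in DMSO organoids. Of those 8 genes, 2 were called higher and 0 lower (median log2 fold change 0.08), where 6 were called lower at day 2. The part of these markers in the results was not tested.

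Wls was at 48.3, 42.3, 47.9 and 56.1 CPM in 4OHT organoids, against 38.6, 37.8, 41 and 41.9 CPM in DMSO organoids. 4OHT replicate 2 lay just above the highest DMSO library, and the 4OHT library had the higher level within each of the 4 replicate numbers. The log2 fold change was 0.29 ± 0.08 (0.12 to 0.47, adjusted p = 0.0222), and 0.28 with the block (adjusted p = 3.35e-04). It was 0.22 without 4OHT replicate 4, the library that stood apart (adjusted p = 0.0288). The call was lost without DMSO replicate 1 (adjusted p = 0.0652), DMSO replicate 2 (0.0612) or 4OHT replicate 3 (0.0535).

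Fzd6 was at 20.9, 22.1, 19.2 and 20 CPM in 4OHT organoids, against 17.5, 19.1, 15.9 and 18.4 CPM in DMSO organoids. Here too the 4OHT library was higher within each of the 4 numbers, by log2 differences of 0.12 to 0.27, although the lowest 4OHT library and the highest DMSO library nearly met. The log2 fold change was 0.21 ± 0.07 (adjusted p = 0.0467) without the block and 0.22 with it (adjusted p = 0.002). Without the block the call rested on single libraries, since it was lost without any of DMSO replicates 1, 3 and 4 and 4OHT replicates 1, 2 and 3, at adjusted p-values of 0.0581 to 0.13, and was kept without 4OHT replicate 4 (0.0496).

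Fzd1 had 0.271, 0.172, 0.379 and 0.208 CPM in 4OHT organoids, against 0.573, 0.415, 0.699 and 0.452 CPM in DMSO organoids. Every DMSO library was above every 4OHT library at these low levels of 14 to 28 counts in 4OHT organoids and 30 to 53 counts in DMSO organoids. The level fell by 51.7%, with a log2 fold change of -1.05 ± 0.27 (-1.65 to -0.45, adjusted p = 0.0179). The 4 numbers gave log2 differences between -1.27 and -0.88. The call was lost without DMSO replicate 1 (adjusted p = 0.0515) or DMSO replicate 3 (0.0532), and the value was -0.96 without 4OHT replicate 4 (0.0396).

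Lrp5 had 296, 276, 294 and 325 CPM in 4OHT organoids, against 277, 267, 276 and 284 CPM in DMSO organoids. The groups overlapped and the log2 fold change of 0.11 ± 0.05 was not called (adjusted p = 0.168), but the 4OHT library was higher within each of the 4 numbers and the blocked fit called the rise (0.11, adjusted p = 0.0217). Without 4OHT replicate 4, which had the highest level, the unblocked value was 0.07 (adjusted p = 0.307), and over all fits that left out 1 library it was 0.07 to 0.15. Porcn had 9.98, 8.24, 8.68 and 9.43 CPM in 4OHT organoids, against 8.49, 7.76, 8.21 and 8.51 CPM in DMSO organoids. It was also higher within each of the 4 numbers and was called by neither fit (0.14 ± 0.08, adjusted p = 0.218, and 0.0672 with the block).

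Fzd7 and Lgr4, both higher at day 2, gave estimates close to 0 at day 4. Fzd7 had 79, 76.6, 71.2 and 78.8 CPM in 4OHT organoids, against 74.8, 81, 76.3 and 80.8 CPM in DMSO organoids. Its groups overlapped, and the interval of the log2 difference was -0.14 to 0.08. Lgr4 had 230, 225, 215 and 236 CPM in 4OHT organoids, against 226, 246, 211 and 218 CPM in DMSO organoids. Its interval was -0.12 to 0.13, which excludes its day 2 estimate.

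Fzd5 at day 4 followed the replicate number more than the treatment. It had 219, 236, 193 and 186 CPM in 4OHT organoids, against 212, 225, 186 and 181 CPM in DMSO organoids. In both treatments replicates 1 and 2 lay above replicates 3 and 4, and within a number the 4OHT library was higher by log2 differences of 0.03 to 0.07. The fit gave 0.05 ± 0.09, and 0.05 ± 0.03 with the block (adjusted p = 0.152). Without 4OHT replicate 4 it was 0.11 (adjusted p = 0.401). Lrp6 (-0.02 ± 0.05, interval -0.15 to 0.10) and Fzd8 (-0.02 ± 0.26, interval -0.61 to 0.57) were not called by either fit.

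Day 4 was also compared with day 2 within each treatment. In 4OHT organoids, 2 of the 10 genes were higher at day 4 (Fzd1 and Fzd8) and 2 were lower (Fzd5 and Porcn), where 25.9% of all genes tested rose and 23.5% fell. In DMSO organoids, 5 were higher at day 4 (Fzd1, Fzd6, Fzd7, Fzd8 and Wls) and 1 was lower (Fzd5), where 28.7% rose and 24.8% fell. These comparisons share their libraries with those between treatments. Cell type markers also moved with time. At day 4, all 8 stem cell markers were higher in 4OHT organoids (median log2 fold change 1.48) and all 8 in DMSO organoids (1.35), and 11 of 12 Paneth markers were higher in 4OHT organoids and 9 of 12 in DMSO organoids. Of 8 enterocyte markers, 7 were higher and 1 lower in 4OHT organoids and 6 higher and 1 lower in DMSO organoids, whereas of 8 epithelial markers 1 was higher and 6 were lower in 4OHT organoids and 6 were lower in DMSO organoids. The part of these shifts in the changes over time was not tested.

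Fzd5 was lower at day 4 in both treatments, with 186 to 236 CPM at day 4 and 238 to 270 CPM at day 2 in 4OHT organoids (log2 -0.24 ± 0.08, adjusted p = 0.0276). In DMSO organoids it had 181 to 225 CPM at day 4 and 230 to 270 CPM at day 2 (-0.28 ± 0.07, adjusted p = 0.00649). The days did not overlap in either treatment, but in 4OHT organoids the call was lost without 4OHT day 2 replicate 1 (adjusted p = 0.0833), 4OHT day 2 replicate 2 (0.0515) or 4OHT day 4 replicate 3 (0.0786).

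The scarce receptor genes Fzd1 and Fzd8 had higher estimates at day 4 in both treatments. For Fzd1 the log2 fold change was 0.76 ± 0.29 in 4OHT organoids (adjusted p = 0.0456) and 1.16 ± 0.24 in DMSO organoids (adjusted p = 0.00115). For Fzd8 it was 0.67 ± 0.25 in 4OHT organoids (adjusted p = 0.0424) and 0.82 ± 0.24 in DMSO organoids (adjusted p = 0.0116). The days overlapped for Fzd8 in 4OHT organoids but not in DMSO organoids, and for Fzd1 in neither treatment. DESeq2 called neither gene in 4OHT organoids (adjusted p = 0.101 for Fzd1 and 0.0847 for Fzd8). In 4OHT organoids the edgeR call of Fzd1 was lost in 6 of 8 fits that left out 1 library (adjusted p 0.0683 to 0.128), the exceptions being 4OHT day 4 replicates 2 and 4. The call of Fzd8 was lost in 7 of 8 (0.0626 to 0.115), the exception being 4OHT day 4 replicate 2. In DMSO organoids the call of Fzd8 was lost without DMSO day 4 replicate 1 (0.62, adjusted p = 0.0526).

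Fzd7 was not called over time in 4OHT organoids and was higher at day 4 in DMSO organoids. Its mean was 76.4 ± 3.63 CPM at day 4 and 77.7 ± 6.54 CPM at day 2 in 4OHT organoids, a log2 difference of -0.02 ± 0.06 (interval -0.15 to 0.12). In DMSO organoids it was 78.2 ± 3.16 CPM at day 4 and 62.9 ± 3.37 CPM at day 2, a log2 difference of 0.33 ± 0.05 (adjusted p = 2.38e-04). Of the 4 groups, DMSO organoids at day 2 thus had the low level and did not overlap with any of the others.

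Wls had a mean of 48.6 ± 5.68 CPM at day 4 and 52 ± 5.16 CPM at day 2 in 4OHT organoids (log2 -0.09 ± 0.09, interval -0.28 to 0.10), and the value was -0.16 without 4OHT day 4 replicate 4 (adjusted p = 0.105). In DMSO organoids it was 39.8 ± 1.92 CPM at day 4 and 32.5 ± 1.95 CPM at day 2, with no overlap between the days (0.31 ± 0.06, adjusted p = 7.35e-04). Fzd6 was not called over time in 4OHT organoids (0.12 ± 0.07, interval -0.04 to 0.27) and was higher at day 4 in DMSO organoids (0.30 ± 0.07, adjusted p = 0.00451). Its days overlapped in DMSO organoids, at 15.9 to 19.1 CPM at day 4 and 13.8 to 16.3 CPM at day 2. Porcn was lower at day 4 in 4OHT organoids, at 9.08 ± 0.772 CPM at day 4 and 10.6 ± 0.773 CPM at day 2 with overlap between the days (-0.22 ± 0.08, adjusted p = 0.0433), and was not called in DMSO organoids (0.05 ± 0.08). That call of Porcn was lost without any of 4OHT day 2 replicates 1, 3 and 4 and 4OHT day 4 replicates 2 and 3 (adjusted p 0.0663 to 0.128). Lrp5 and Lgr4 had lower estimates at day 4 in 4OHT organoids, and whether they were called depended on the fit. In edgeR's fit of the 8 libraries Lrp5 was at -0.12 ± 0.05 (adjusted p = 0.0669) and Lgr4 at -0.11 ± 0.05 (adjusted p = 0.0714). Lrp5 was called lower by edgeR on all 16 libraries (-0.13, adjusted p = 0.0283), by DESeq2 (adjusted p = 0.0497) and without 4OHT day 4 replicate 4 (-0.16, adjusted p = 0.0101). Lgr4 was called lower by DESeq2 (adjusted p = 0.0452) and without 4OHT day 4 replicate 4 (-0.13, adjusted p = 0.0489) or 4OHT day 2 replicate 2 (-0.14, adjusted p = 0.05 after rounding), but not on all 16 libraries (adjusted p = 0.0916). In DMSO organoids neither was called in the fit of the 8 libraries or by DESeq2, and Lrp6 was called in neither treatment by these fits; without DMSO day 2 replicate 3 Lrp6 was called higher in DMSO organoids (adjusted p = 0.0256). In all, DESeq2 called 4 of the 10 genes lower and 0 higher at day 4 in 4OHT organoids. In that comparison it called 21.7% of all genes lower and 22.4% higher.

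**Figure D3:**
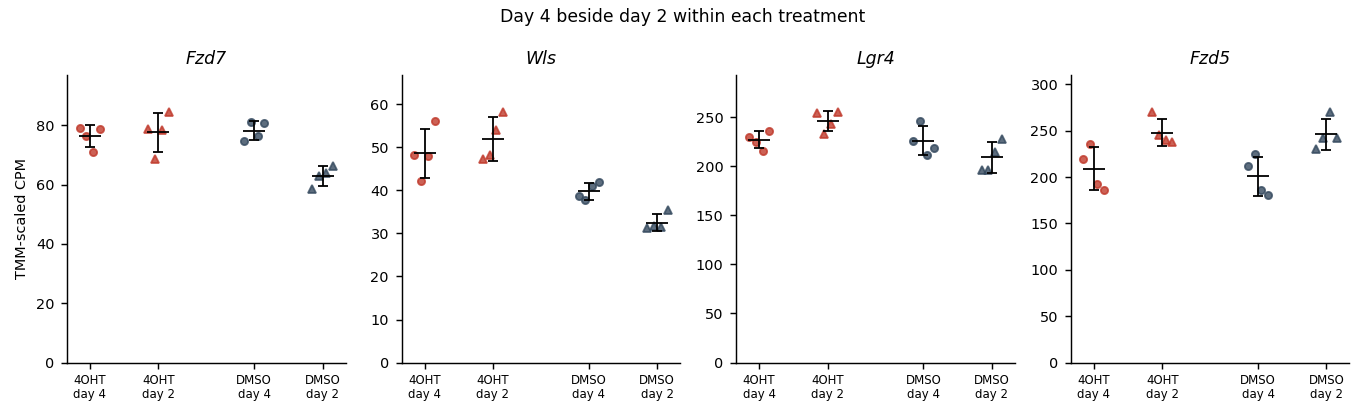
TMM-scaled CPM of Fzd7, Wls, Lgr4 and Fzd5 at day 4 (circles) beside day 2 (triangles) in 4OHT organoids (red) and in DMSO organoids (dark blue); points are single libraries, and bars and whiskers are means and SDs of 4. For Fzd7 the DMSO day 2 libraries (58.4 to 66.4 CPM) lie below those of the other 3 groups, and for Fzd5 day 4 lies below day 2 in both treatments.

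Whether the treatment effect differed between the days was tested as an interaction over all 16 libraries, given as the effect at day 4 minus the effect at day 2. For Fzd7 the effect was -0.03 at day 4 and 0.31 at day 2, and the difference of -0.34 ± 0.08 had an adjusted p of 0.0481. It was the single call of the 10 genes, in a comparison where 1.2% of all genes had a higher and 0.476% a lower effect at day 4. With a block for each replicate number within a day the adjusted p was 0.0077, and with DESeq2, which called 4.45% of all genes higher and 1.8% lower, it was 0.00971. In the fit without a block the call was lost in 13 of the 16 fits that left out 1 library, with adjusted p-values of 0.0509 to 0.117, the exceptions being DMSO day 2 replicate 4, 4OHT day 2 replicate 2 and 4OHT day 4 replicate 4.

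For Wls the effect was 0.29 at day 4 and 0.68 at day 2, and the difference of -0.39 ± 0.11 (interval -0.62 to -0.15) was not called (adjusted p = 0.0784). It was called with the block (adjusted p = 0.00335) and with DESeq2 (0.0283), and also without DMSO day 2 replicate 4 (0.0411) or 4OHT day 4 replicate 4 (0.0241). For Lgr4 the difference of -0.23 ± 0.08 was called with the block alone (adjusted p = 0.149 without it and 0.0344 with it). With the block, 3 of the 10 genes therefore had a lower effect at day 4, where 7.05% of all genes had a higher and 4.1% a lower one. The other 7 genes were called by neither fit, Porcn being at -0.26 ± 0.11 (adjusted p = 0.229, and 0.0882 with the block). No gene of the 10 had a higher effect at day 4 at an unadjusted p below 0.05 in edgeR, and DESeq2 also called 0.

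The levels per kilobase were also read as shares of a receptor pool, with the same limit on exon length. The 9 Frizzled genes with counts summed to 59.1 ± 2.78 CPM per kb in 4OHT organoids and 55.6 ± 2.88 CPM per kb in DMSO organoids at day 2, and to 55.9 ± 3.8 CPM per kb in 4OHT organoids and 56.8 ± 2.87 CPM per kb in DMSO organoids at day 4 (SD, n = 4 each), so the sums overlapped at both days. Fzd5 made up 60.7% ± 2.41 of the pool in 4OHT organoids and 64% ± 1.42 in DMSO organoids at day 2, with overlapping ranges (57.9% to 63.2% and 62.4% to 65.9%). Fzd7 made up 29% ± 1.95 in 4OHT organoids and 25% ± 0.961 in DMSO organoids at day 2, with no overlap (27.1% to 31.3% and 23.9% to 26.1%).

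At day 4 the share of Fzd5 was lower in both treatments than at day 2, at 53.8% ± 2.57 in 4OHT organoids and 51.1% ± 2.95 in DMSO organoids. The share of Fzd7 was 30.2% ± 1.89 in 4OHT organoids and 30.4% ± 1.66 in DMSO organoids. Fzd2, a Frizzled outside the 10 genes, made up 2.15% ± 0.163 in 4OHT organoids and 3.7% ± 0.268 in DMSO organoids at day 2, and 5.46% ± 0.409 in 4OHT organoids and 7.95% ± 0.789 in DMSO organoids at day 4. Fzd6 made up 6.71% ± 0.261 in 4OHT organoids and 5.45% ± 0.475 in DMSO organoids at day 2, and 7.64% ± 0.134 in 4OHT organoids and 6.48% ± 0.358 in DMSO organoids at day 4. In 4OHT organoids Fzd6 thus exceeded Fzd2 at both days, whereas in DMSO organoids Fzd6 exceeded Fzd2 at day 2 and Fzd2 had the higher mean at day 4. Shares of one pool depend on each other and were not tested.

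The co-receptor pool was mostly Lrp5. It held 81.9% ± 1.02 Lrp5 in 4OHT organoids and 80.4% ± 2.42 in DMSO organoids at day 2. The sum of Lrp5 and Lrp6 was 40.9 ± 0.782 CPM per kb in 4OHT organoids and 36.6 ± 1.49 CPM per kb in DMSO organoids at day 2, with no overlap (40.1 to 41.8 and 34.4 to 37.6 CPM per kb). At day 4 the sums overlapped, at 38.5 ± 2.03 CPM per kb in 4OHT organoids and 36.4 ± 0.436 CPM per kb in DMSO organoids (36.4 to 41.2 and 35.9 to 36.8 CPM per kb).

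**Figure D4:**
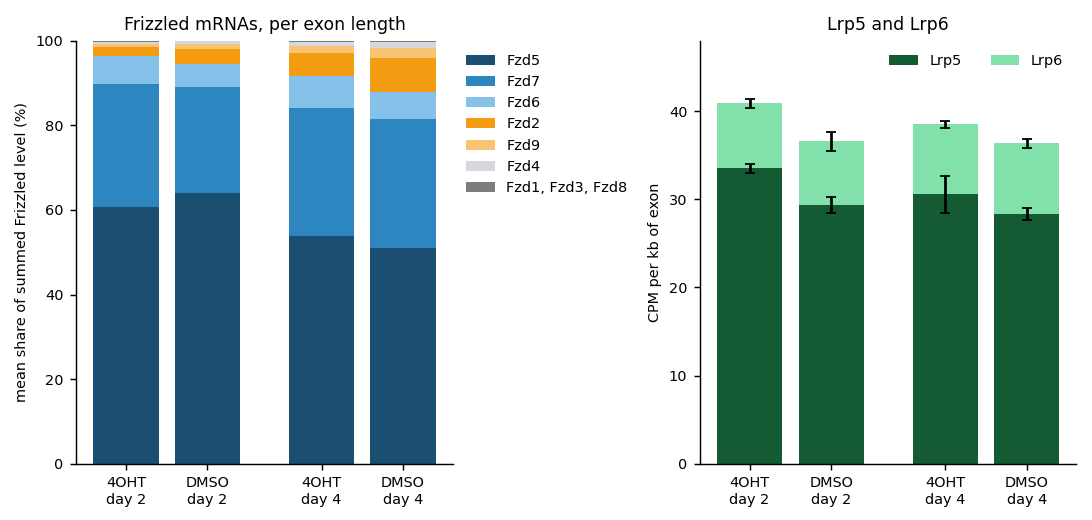
Left, mean share of each Frizzled gene in the summed Frizzled level per kilobase of exon, in percent, for the 4 groups; right, mean level of Lrp5 and Lrp6 in CPM per kilobase of exon, stacked, with SD whiskers over 4 libraries. Fzd5 and Fzd7 together make up most of the Frizzled pool in every group, and the orange Fzd2 segment is 2.15% in 4OHT organoids and 3.7% in DMSO organoids at day 2.

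Other genes were ranked by how closely their levels followed the 3 genes that varied most over the 16 libraries, as the root mean square difference of centred log2 CPM among 9320 candidates. For Wls (SD 0.29 on the log2 scale) the closest were Atxn10, at 0.08, and Pls3, which encodes an actin-bundling protein, at 0.09. Atxn10 had means of 82.9 CPM in 4OHT organoids and 55.1 CPM in DMSO organoids at day 2, and 78.6 CPM in 4OHT organoids and 64.8 CPM in DMSO organoids at day 4. For Fzd1 (SD 0.71) the closest were Prlr, the prolactin receptor, at 0.30 and Frmd4a at 0.31, and for Fzd8 (SD 0.45) Slc41a1 and Cbx6, both at 0.27. Fzd1 and Fzd8 had at most 53 counts in a library.

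The rest of the pathway was read from lists of Wnt genes. For comparison, 16.9% of all genes tested rose and 14.3% fell at day 2, and 13.7% rose and 11.1% fell at day 4. Of 10 other Wnt receptor and co-receptor genes tested at day 2, 4 rose and 4 fell, with a median log2 fold change of -0.15. Fzd2 was at 4.64 ± 0.359 CPM in 4OHT organoids and 7.52 ± 0.353 CPM in DMSO organoids (-0.69 ± 0.07, adjusted p = 2.81e-05), the opposite direction to Fzd6 and Fzd7. Ryk, a Wnt receptor related to tyrosine kinases, rose by a log2 fold change of 0.16 ± 0.04 (adjusted p = 0.017), and Mesd, a chaperone for Lrp5 and Lrp6, was at 0.02 ± 0.04. Lgr5, the R-spondin receptor of intestinal stem cells, which was picked after its values were seen as the paralog of Lgr4, was at 24.8 ± 3.66 CPM in 4OHT organoids and 34.9 ± 5.12 CPM in DMSO organoids (-0.48 ± 0.11, adjusted p = 0.00709).

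At day 4, 5 of the 10 other receptor genes fell and none rose with edgeR or DESeq2, 1 being higher at an unadjusted p below 0.05 and 1 with the block. With the block, 22.8% of all genes rose and 22.2% fell. Fzd2 was at 11.2 ± 0.67 CPM in 4OHT organoids and 16.5 ± 0.868 CPM in DMSO organoids (-0.56 ± 0.07, adjusted p = 2.81e-04). Ror2, a receptor for Wnt5a, was at 25.2 ± 1.17 CPM in 4OHT organoids and 35.3 ± 1.4 CPM in DMSO organoids (-0.49 ± 0.05, adjusted p = 1.69e-04). Lgr5 fell by 0.35 ± 0.11 on the log2 scale (adjusted p = 0.0403), where Lgr4 was at 0.01 ± 0.06.

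The next list held genes that handle Wls as cargo. Of 10 tested, 2 rose at day 2, Mtmr6, a phosphoinositide phosphatase (0.35 ± 0.06, adjusted p = 5.84e-04), and the retromer subunit Vps35 (0.14 ± 0.04, adjusted p = 0.0277). None fell, with 0 also at an unadjusted p below 0.05 in edgeR and with DESeq2. The 2 rises lie near the 16.9% of all genes that rose, and 14.3% of all genes fell. Tmed10, a cargo receptor of the early secretory path and among the most abundant of the list, was at 206 ± 3 CPM in 4OHT organoids and 215 ± 5.98 CPM in DMSO organoids (-0.05 ± 0.04). At day 4 Mtmr6 was again higher (0.36 ± 0.08, adjusted p = 0.00871) as the single call, and 4 of the 10 rose with the block, Tmed5 among them (0.18, adjusted p = 0.00393). Of all genes, 13.7% rose at day 4 without the block and 22.8% rose with it.

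The Wnt ligands moved in both directions. Of 7 tested, 3 rose and 2 fell at day 2, and 4 rose and 2 fell at day 4. Wnt3, the Wnt of mouse Paneth cells, was at 4.64 ± 0.385 CPM in 4OHT organoids and 9.28 ± 1.26 CPM in DMSO organoids at day 2, and at 8.48 ± 0.246 CPM in 4OHT organoids and 16.6 ± 0.623 CPM in DMSO organoids at day 4. Wnt4 was at 9.02 ± 1.43 CPM in 4OHT organoids and 0.997 ± 0.101 CPM in DMSO organoids at day 2 (log2 3.19 ± 0.13, adjusted p = 1.56e-08), and at 4.25 ± 1.22 CPM in 4OHT organoids and 0.438 ± 0.0762 CPM in DMSO organoids at day 4. Of 4 R-spondin genes, 1 was in the tables and none passed the filter on low counts.

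Among inhibitors that act at the receptor, 3 of 6 genes tested rose at day 2, whereas 1 of 8 rose and 5 fell at day 4. Of all genes, 16.9% rose and 14.3% fell at day 2, and 13.7% rose and 11.1% fell at day 4. Shisa2, which retains Frizzled in the endoplasmic reticulum, was at 31.7 ± 1.78 CPM in 4OHT organoids and 21.7 ± 0.868 CPM in DMSO organoids at day 2 (0.56 ± 0.05, adjusted p = 7.31e-06) and was not called at day 4 (0.08 ± 0.08). Kremen1, a Dickkopf receptor, rose at day 2 (0.28 ± 0.05, adjusted p = 7.53e-04). Rnf43, the ligase that removes Frizzled, was at -0.03 ± 0.07 at day 2 and fell by 0.34 ± 0.05 on the log2 scale at day 4 (adjusted p = 0.00112). Apcdd1, a membrane inhibitor of Wnt, fell by 1.16 ± 0.13 at day 4 (adjusted p = 1.98e-04). The effect differed between the days for Apcdd1 (-1.48 ± 0.24, adjusted p = 0.00756) and Shisa2 (-0.48 ± 0.10, adjusted p = 0.0261). In that fit 0.476% of all genes had a lower and 1.2% a higher effect at day 4. With the block, 4 of the 8 inhibitor genes had a lower effect at day 4, where 4.1% of all genes had a lower and 7.05% a higher one.

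Downstream of the receptors, 3 of 19 transducer genes rose and 2 fell at day 2, and 1 rose and 3 fell at day 4 (5 and 6 with the block). The day 2 counts lie near the 16.9% and 14.3% of all genes that rose and fell. At day 4, 13.7% of all genes rose and 11.1% fell, and 22.8% and 22.2% with the block. Ctnnb1, which encodes β-catenin, was at 1205 ± 42.2 CPM in 4OHT organoids and 1048 ± 40.3 CPM in DMSO organoids at day 2 (0.21 ± 0.05, adjusted p = 0.00812), and at 0.18 ± 0.06 on the log2 scale at day 4 (adjusted p = 0.0569, and 0.00537 with the block). Of 17 Wnt target genes tested at day 2, 1 rose (Ccnd1, 0.57 ± 0.08, adjusted p = 1.79e-04) and 7 fell, with a median log2 fold change of -0.37. Axin2, a general Wnt target, was at 57.7 ± 2.62 CPM in 4OHT organoids and 95.4 ± 11.8 CPM in DMSO organoids (-0.72 ± 0.08, adjusted p = 3.13e-05). At day 4, 11 of 18 target genes fell, with a median of -0.36, and 0 rose with edgeR at an adjusted or an unadjusted p below 0.05 or with DESeq2. Rnf43, Znrf3, Lgr5, Tcf7 and Notum each stand in the target list and in another Wnt list, so the lists are not independent. Lgr5, Axin2, Ascl2 and Tnfrsf19 of the target list are also among the stem cell markers, so the target genes and those markers are not separate observations.

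**Figure D5:**
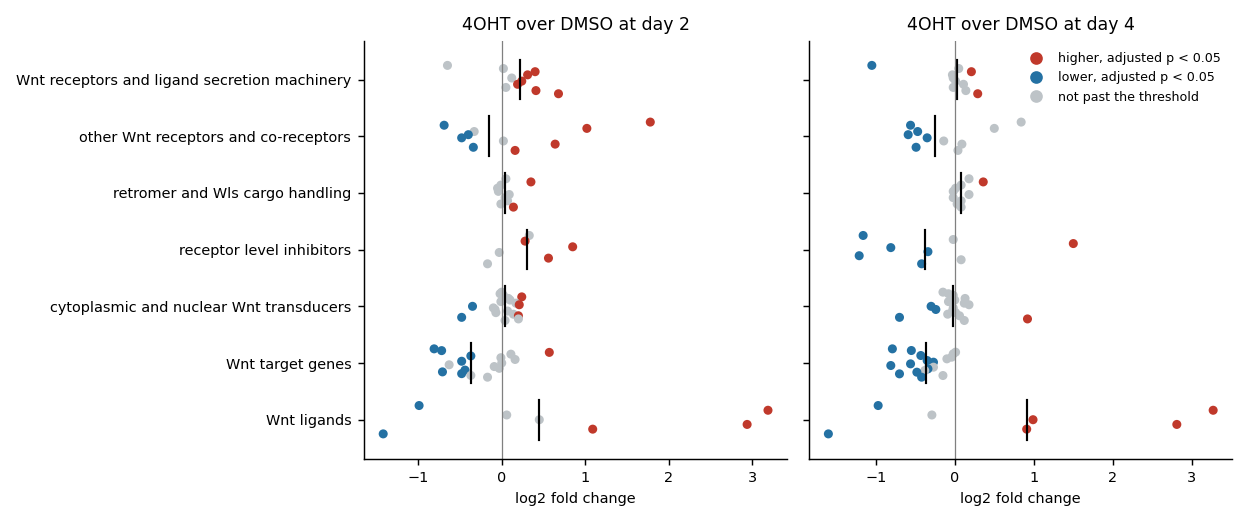
Log2 fold change, 4OHT over DMSO, of each tested gene by list at day 2 (left) and day 4 (right); red points are higher and blue points lower at an adjusted p below 0.05 (edgeR), grey points are not past that threshold, and black bars are list medians. The 10 receptor and secretion genes have a median of 0.22 at day 2 and 0.03 at day 4, while the Wnt target genes have medians of -0.37 and -0.36.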

How the data were processed

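The 16 poly(A) RNA libraries were prepared with a directional second-strand module, per the labels' protocols. Reads were handled with bcl2fastq 1.8.4 and STAR 2.4.0f1 on build GRCm38, per the submitters' processing notes; for the counting, the tool, annotation and strand setting were not given in the sources used here. The authors deposited whole-number counts per gene, 1 table a day, beside normalized values (a score per gene and library), log2 fold changes, log2 CPM and p-values, per the file headers; only the counts were used. At day 4, date-like entries stood in place of 14 symbols, which were restored from gene IDs.

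Counts were tested with edgeR 4.0.16 in R 4.3.3, as robust quasi-likelihood fits after filterByExpr and TMM scaling, with Benjamini-Hochberg adjustment over all genes tested. Treatments were compared within the 8 libraries of a day and days within the 8 of a treatment, and time and interaction fits used the 19964 genes in both tables. The SE is the log2 fold change over the square root of F. Exon lengths and overlaps are from GENCODE M21. Counting error alone understates the error, since reads carry no molecular identifiers. In 24 within-group pairs counts differed by more than counting noise. The tests were checked on simulated counts.

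The genes and lists were chosen with earlier results of these data known. All 10 genes, Hnf4a and Wnt3 were named, and from each other list, for each treatment comparison, the 2 genes of smallest p and the 2 of highest level could be; for the 3 genes of largest SD, the 2 genes of closest pattern with a mean log2 CPM of at least 3 were named. Genes named outside this rule are marked as picked after their values were seen. Alternatives were DESeq2 1.42.0, its size factors in edgeR, no filter, a minimum of 1 CPM in 4 libraries, the replicate number as a block, all 16 libraries in a fit, and each library left out.

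Pairing by replicate number was checked over 9687 genes from deviations from group means. Same-number correlations between 4OHT and DMSO libraries were 0.632 to 0.81 at day 4, the highest for each library. Different numbers also correlated positively within replicates 1 and 2 (0.431 and 0.159) and within replicates 3 and 4 (0.496 and 0.424). Between these sets the correlations were -0.677 to -0.325. The libraries thus deviated together by number and also as replicates 1 and 2 against replicates 3 and 4. The evidence for the block is the data alone, as no label names a shared batch. Same-number correlations were -0.11 to 0.475 at day 2, -0.228 to 0.392 between days in 4OHT and 0.071 to 0.186 in DMSO, where pairing was not detected.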

Additional observations from a re-analysis of the deposited data

Results flagged for a closer look

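In DMSO organoids at day 2, Wls replicate 4, at 35.4 CPM, lay far from the other 3 libraries at 31.2 to 31.8 CPM, a gap of 0.851 of the group's range that exceeds Dixon's 95% critical value. In 4OHT organoids at day 2, Lrp5 replicate 3, at 334 CPM, lay above the other 3 at 323 to 324 CPM, a gap of 0.923 of a narrow range. Among the 40 groups checked for the 10 genes, chance alone flags about 1 in 20. The treatment effect on Fzd7 differed between the days, by -0.34 at day 4 minus day 2 on the log2 scale, with its tests and the libraries it rests on given above.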

How the results depend on the processing

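At day 2 each of the 6 calls among the 10 genes held in every alternative, with 6 called higher without any 1 library and 0 to 1 called lower; over all genes the ranges without 1 library were 2046 to 2604 higher and 1660 to 2547 lower. At day 4 members called higher numbered 1 with DESeq2 size factors and 1 with no filter (Fzd6 lost, adjusted p = 0.0509 and 0.0527), members called lower 0 with at least 1 CPM in 4 libraries, which removes Fzd1 and Fzd8, and without 1 library 0 to 2 were higher and 0 to 1 lower (all genes 1704 to 2304 and 1253 to 1737). For day 4 over day 2 in 4OHT organoids, 0 were higher and 4 lower with DESeq2, 1 and 1 with no filter, 0 and 1 with the CPM minimum, and 0 to 2 higher and 0 to 4 lower without 1 library (all genes 3497 to 4389 and 3127 to 4056). In DMSO organoids, 3 were higher with the CPM minimum, which removes Fzd1 and Fzd8 here too, and 4 to 6 higher and 1 to 1 lower without 1 library (all genes 3864 to 4462 and 3605 to 4125). For the interaction, 2 were lower with DESeq2 and 0 with no filter (Fzd7, adjusted p = 0.0586), and without 1 library 0 to 0 were higher and 0 to 2 lower; over all genes 595 had a higher and 241 a lower effect at day 4 with DESeq2, and 66 to 502 and 28 to 225 without 1 library. The shares of all genes called with DESeq2 size factors, no filter or the CPM minimum are not given here. The counts under these settings therefore show only which calls changed. Other causes were not tested. Values near 0 that were not called changed sign without 1 library: at day 2 Fzd5 ranged over -0.03 to 0.06, Lrp6 over -0.04 to 0.13 and Rnf43 over -0.09 to 0.02; at day 4 Fzd5 over -0.01 to 0.11, Fzd8 over -0.17 to 0.18, Lrp6 over -0.05 to 0.01, Lgr4 over -0.02 to 0.05, Ccnd1 over -0.02 to 0.05, Ryk over -0.01 to 0.09, Tmed10 over -0.01 to 0.03 and Vps35 over -0.01 to 0.15. The same held for Fzd7 over time in 4OHT organoids (-0.07 to 0.03) and Porcn in DMSO organoids (-0.02 to 0.07), and in the interaction for Fzd5 (-0.02 to 0.10), Fzd8 (-0.27 to 0.06), Lrp6 (-0.16 to 0.02) and Wnt3 (-0.05 to 0.10).

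The replicate block changed no call among the 10 genes at day 2 or between days. With it, 3651 genes rose and 3565 fell at day 4, against 2191 and 1776 without it, and the interaction called 1170 and 680 genes and 3 of the 10 genes lower.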
